A study of Mus musculus with 6 samples.

Results

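The 8 miRNAs described here are known from neurons and glia: mmu-miR-9-5p, mmu-miR-9-3p, mmu-miR-124-3p, mmu-miR-128-3p, mmu-miR-129-5p, mmu-miR-129-2-3p, mmu-miR-338-5p and mmu-miR-338-3p, written below without the mouse prefix. They were taken by name, and all 8 were among the 649 entries of the deposited count table. Small RNA was sequenced from ulcer skin of C57 mice, an inbred laboratory strain, at day 14. The samples were 3 diabetic ulcers and 3 normal ulcers, and the sources used here give no age and no way of inducing diabetes. They do not say whether each sample is a separate animal, so a p-value here covers no more than sample-to-sample spread, which may be technical. The columns numbered 3 were not taken as independent measurements. In normal ulcer 3, 634 of 638 counts matched a weighted sum of the first pair of normal ulcers (weights 0.50 and 0.506) to within 1 read. The count of diabetic ulcer 3 equalled that of diabetic ulcer 1 or 2 for 287 of 308 entries where those were under 60 counts and unequal. This check does not reach larger counts. For example, miR-9-5p had 1174 counts in diabetic ulcer 3, against 656 and 885 in diabetic ulcer 1 and 2. Values below are therefore from libraries 1 and 2 of each group, which held 9309055 and 10762761 counts in diabetic ulcer and 8949104 and 13421603 counts in normal ulcer.

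MicroRNAs are short RNAs that guide repressor complexes to messenger RNAs through their seed, the bases near the 5′ end. A hairpin precursor yields a 5p and a 3p arm, of which usually one predominates. miR-9 acts in neural progenitors and neurons, and miR-124 is a defining miRNA of neurons that represses non-neuronal genes. miR-128 and miR-129 are enriched in brain, where miR-128 tempers neuronal excitability, and miR-338 is linked to the maturation of myelinating glia. Skin holds sensory axons and their Schwann cells, whereas the cell bodies of these axons lie in ganglia outside it.

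The mature sequences are shown because each seed differs, so that these miRNAs are not one seed family. They are RefSeq sequences on GRCm38.p6, with the seed (bases 2 to 8) in capitals, and 7 of the 8 miRNAs matched, each with the deposited sequence identical.
miR-9-5p: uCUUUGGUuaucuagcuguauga
miR-9-3p: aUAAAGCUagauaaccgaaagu
miR-128-3p: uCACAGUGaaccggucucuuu
miR-129-5p: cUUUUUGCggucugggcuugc
miR-129-2-3p: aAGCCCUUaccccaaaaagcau
miR-338-5p: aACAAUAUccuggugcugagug
miR-338-3p: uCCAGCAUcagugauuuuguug

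Several have more than 1 genomic source, and the counts cannot be divided between sources. Both arms of miR-9 are encoded at 3 places: Mir9-1 at chr3:88215598-88215686 in an intron of the long non-coding Gm3764, Mir9-2 at chr13:83738814-83738885 in an exon of C130071C03Rik, and Mir9-3 at chr7:79505264-79505353 in an intron of Mir9-3hg, all on the plus strand. miR-128-3p comes from Mir128-1 at chr1:128202361-128202430 in an intron of R3hdm1 and from Mir128-2 at chr9:112118636-112118711 in an intron of Arpp21. miR-129-5p is encoded by Mir129-1 at chr6:29022619-29022691, in an exon of the long non-coding Gm3294, and by Mir129-2 at chr2:94241364-94241453, in an intron of Mir670hg. Of these hairpins, Mir129-2 gives miR-129-2-3p. Mir338 lies at chr11:120014765-120014862 on the minus strand in an intron of Aatk, a kinase gene.

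All 8 miRNAs were minor species in these libraries. Their levels are given as TMM-scaled CPM (read counts scaled to a common library total, after trimmed-mean correction); the mature RNAs are 20 to 23 bases long, so no length term is needed. Ligation and amplification can favour some sequences, so the order of miRNAs and the arm shares below are those of reads, not of molecules. Over the 4 libraries the highest mean was that of miR-128-3p at 100.2 CPM (rank 141 of 649), followed by miR-9-5p at 80.6 CPM (rank 150), and the ranges of these 2 overlapped. miR-338-5p averaged 31.0 CPM (rank 196), and its highest library lay below the lowest of miR-9-5p. Below it came miR-129-5p at 17.2 CPM (rank 224) and miR-338-3p at 16.6 CPM (rank 227), whose ranges overlapped each other and that of miR-338-5p. The rarest were miR-9-3p at 2.16 CPM, miR-129-2-3p at 1.04 CPM and miR-124-3p at 0.326 CPM.

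**Figure D1:**
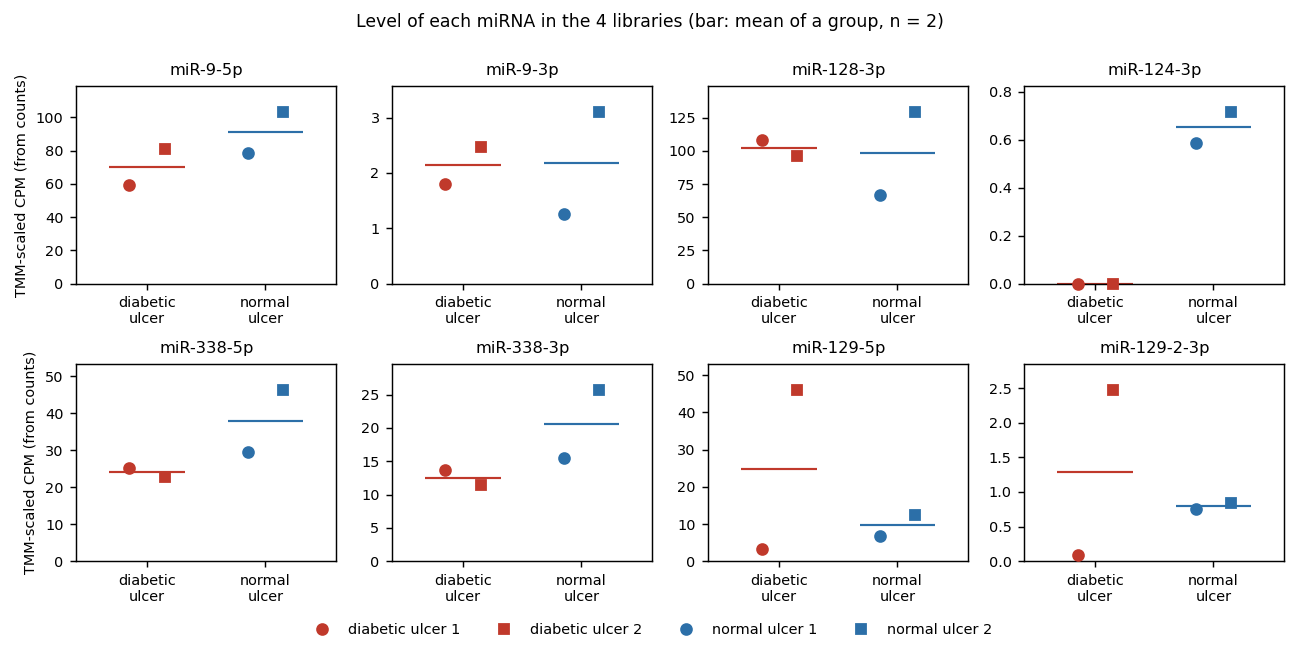
TMM-scaled CPM (y axis, linear from 0) of each miRNA in diabetic ulcer 1 and 2 (left) and normal ulcer 1 and 2 (right); a bar marks the mean of a group. Both diabetic ulcers lie below both normal ulcers for miR-338-5p and miR-338-3p, and diabetic ulcer 2 stands far above the other libraries for miR-129-5p.

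Markers of neurons and glia were uneven in these libraries. Of 5 neuronal markers, miR-128-3p, miR-9-5p and miR-129-5p had the levels above, and of 4 glial markers, miR-338-3p and miR-138-5p were counted. miR-124-3p, the other neuronal marker counted, had 0 and 0 counts in diabetic ulcer 1 and 2, against 7 and 6 counts in normal ulcer 1 and 2. A count of 0 has a two-sided 95% Poisson interval of 0 to 3.69 counts, for counting error only. A floor set at 3 counts equals 0.322 and 0.279 CPM in diabetic ulcer 1 and 2, before TMM scaling. For diabetic ulcer 2 these limits hold for the count table only, since the deposited TPM described below corresponds to 9 reads. The remaining markers, miR-137-3p of neurons and miR-219a-5p and miR-219a-2-3p of myelinating glia, were not among the listed entries. miR-219a-1-3p, which is not one of these markers, had 15 and 21 counts in diabetic ulcer, against 18 and 9 in normal ulcer (log2 difference 0.32, not passing). The libraries were instead rich in miRNAs of other tissues: 5 skeletal muscle miRNAs, of which miR-1a-3p was the most abundant, took 35.7% and 44.9% of counts in diabetic ulcer 1 and 2 and 17.2% and 66.1% in normal ulcer 1 and 2. In bulk tissue, fewer cells of a type and less RNA per cell cannot be told apart.

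No miRNA passed the comparison of diabetic with normal ulcer. edgeR's quasi-likelihood test with Benjamini-Hochberg adjustment over all 443 tested miRNAs called 0, a share of 0%, with 4 at an unadjusted p under 0.05 (0.903%) and 0 by DESeq2. Of the 8 miRNAs described here, 7 passed the low-count filter and miR-124-3p did not. Their adjusted p was 0.999 in each case. The log2 difference had a median of 0.01 over the 7 and of -0.02 over all tested miRNAs.

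The largest departure among these miRNAs was between libraries of one group, at miR-129, a family linked to the control of a potassium channel in rodent neurons. miR-129-5p had 36 and 503 counts in diabetic ulcer 1 and 2, against 80 and 105 in normal ulcer 1 and 2. This corresponds to 3.25 and 46.2 CPM in diabetic ulcer and 6.72 and 12.5 CPM in normal ulcer. Diabetic ulcer 2 was thus the highest and diabetic ulcer 1 the lowest of the 4 libraries. The 2 diabetic libraries differed 14.2-fold, the widest gap between them of all 443 tested miRNAs, ranked after adding 0.5 CPM, whereas the normal libraries differed 1.86-fold (rank 74). Group means were 24.7 ± 30.3 CPM in diabetic ulcer and 9.62 ± 4.11 CPM in normal ulcer (SD, n = 2 each). The log2 difference, diabetic minus normal, was 1.36 ± 1.12 (SE, edgeR, adjusted p = 0.999). edgeR's test reports no SE, so each SE here was derived as the absolute log2 difference over the square root of the test's F statistic. The log2 difference was 2.27 without diabetic ulcer 1 and -1.50 without diabetic ulcer 2, so its sign rests on diabetic ulcer 2. Each of these fits left 1 diabetic library and holds no spread between diabetic libraries, so no SE is given.

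The other arm moved with it. miR-129-2-3p, which reports the Mir129-2 hairpin alone, had 1 and 27 counts in diabetic ulcer 1 and 2, against 9 and 7 in normal ulcer 1 and 2. The order of the diabetic libraries was that of miR-129-5p, with the 4th widest gap between them of the 443. Its log2 difference was 0.69 ± 1.18 (SE, edgeR, adjusted p = 0.999). Opposite Mir129-2, on the plus strand, lies the hairpin of miR-129b at chr2:94241378-94241442, shown with Mir129-2 because the arms mirror each other (arms in capitals, each 5′ to 3′ on its own strand).
Mir129-2: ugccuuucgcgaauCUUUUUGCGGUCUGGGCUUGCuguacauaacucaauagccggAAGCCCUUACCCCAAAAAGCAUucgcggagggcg
Mir129b: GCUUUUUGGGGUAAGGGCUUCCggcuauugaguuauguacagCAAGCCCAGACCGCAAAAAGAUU
The reverse complement of miR-129-5p shares an unbroken run of 20 of its 21 bases with miR-129b-3p, and that of miR-129-2-3p a run of 20 of its 22 with miR-129b-5p. Whether the authors' counting used strand is not given in the sources used here. miR-129b-3p had 0 and 6 counts in diabetic ulcer 1 and 2, against 6 and 5 in normal ulcer 1 and 2, and miR-129b-5p had 0 and 5 counts, against 6 and 5. All 4 miRNAs of the locus were lowest in diabetic ulcer 1. On the antisense side, diabetic ulcer 2 was within 1 count of the normal ulcers.

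**Figure D2:**
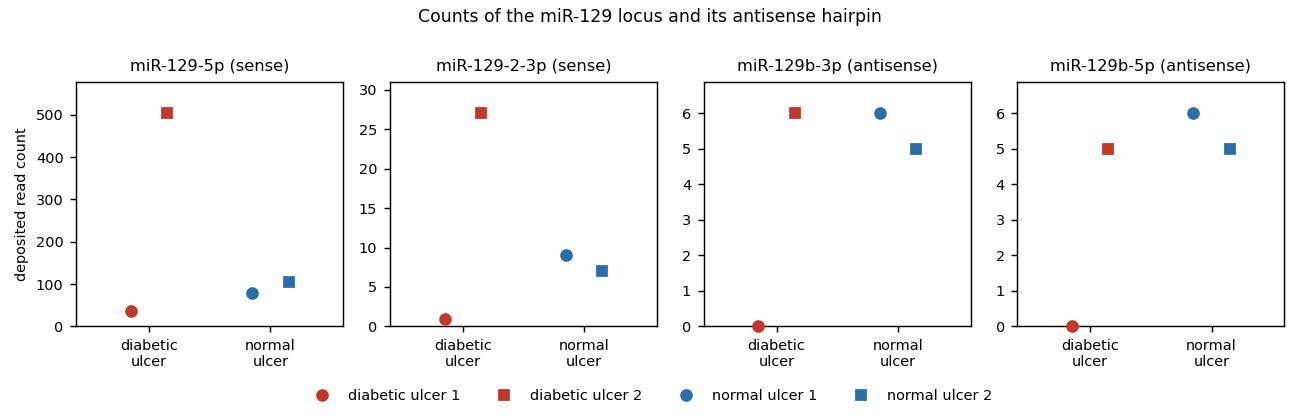
Deposited read counts (y axis, linear from 0, a separate scale per panel) of the sense arms miR-129-5p and miR-129-2-3p and of the antisense arms miR-129b-3p and miR-129b-5p, with diabetic ulcer on the left and normal ulcer on the right. Diabetic ulcer 1 is lowest in every panel; diabetic ulcer 2 is highest for the sense arms, with 503 and 27 counts, and holds 6 and 5 counts of the antisense arms.

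Markers of other cells also differed between the libraries. The summed level of 4 leukocyte miRNAs, led by miR-223-3p, was 597 and 1370 CPM in diabetic ulcer 1 and 2, against 706 and 863 CPM in normal ulcer 1 and 2. Likewise 2 endothelial miRNAs, led by miR-126a-3p, summed to 9978 and 18281 CPM in diabetic ulcer, against 11780 and 15827 CPM in normal ulcer. For 7 epithelial miRNAs, led by miR-203-3p, the sums were 42820 and 19321 CPM in diabetic ulcer and 52552 and 22990 CPM in normal ulcer. The leukocyte and endothelial sums were both highest in diabetic ulcer 2 and lowest in diabetic ulcer 1, as for miR-129-5p. Of the leukocyte miRNAs, miR-150-5p was instead lowest in normal ulcer 1, at 82.6 CPM, against 147.6 CPM in diabetic ulcer 1. The endothelial sum was also higher, and the epithelial sum lower, in both libraries numbered 2 than in both numbered 1. The part of these cells in the miR-129 values was not tested.

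The deposited comparison listed miR-129-5p near its top and rested on a different split of the libraries from the labels. In the authors' deposited table, miR-129-5p had a fold change of 0.166 and a log2 fold change of -2.59, coded D3M (normal) over D3C (diabetic), with q = 0.0683 and rank 2 of 649 by p. Its group means there were 468 for D3C and 77.8 for D3M, in the authors' normalized counts. The authors' deposited table gave q = 0.991 for each of the other 7 miRNAs described here, and q under 0.05 for 1 of 649 entries (0.154%). Fitted on the 4 libraries, the D3C mean had a weight of 0.929 on diabetic ulcer 2. The weights were 0 on diabetic ulcer 1 and 0.0006 and 0.0007 on normal ulcer 1 and 2. This fit held within 1% for 627 of 647 entries. At its median ratio to diabetic ulcer 2 alone, 0.931, the D3C mean matched within 1% for 436 of 439 entries with at least 10 TPM-implied reads there. The D3M mean equalled 0.327 times diabetic ulcer 1 plus 0.284 times normal ulcer 1 plus 0.413 times normal ulcer 2, within 1%, for 645 of 647 entries. The deposited fold changes therefore set diabetic ulcer 2 against the other 3 libraries, diabetic ulcer 1 included. The groups used here follow the sample labels instead. Each comparison of diabetic with normal ulcer, and each gap between the diabetic libraries, thus rests on the label of diabetic ulcer 1. Whether that label or the split is right was not tested. In that split miR-129-5p had 46.2 CPM in diabetic ulcer 2, against 7.50 ± 4.69 CPM in the other libraries (SD, n = 3), a 6.16-fold difference with no replicate on one side.

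**Figure D3:**
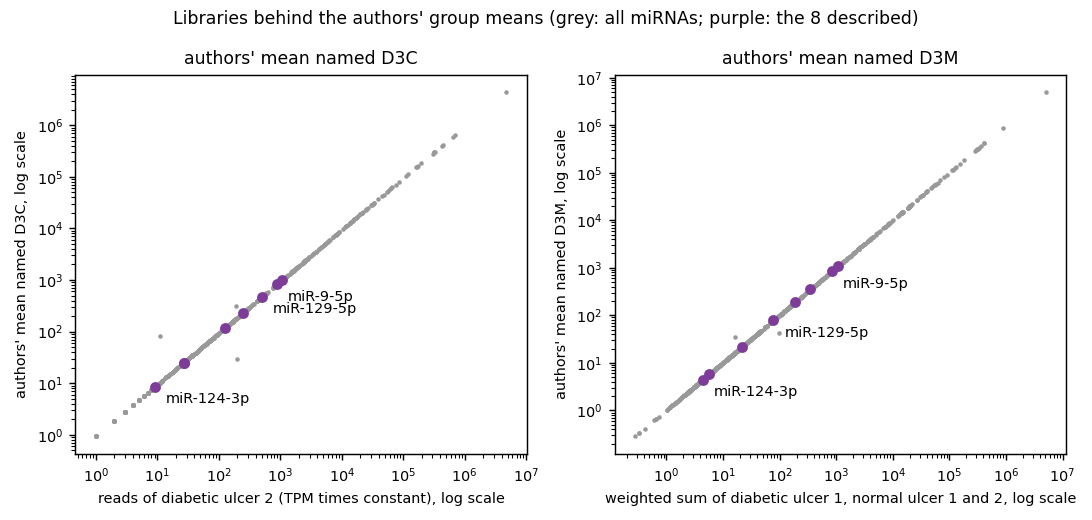
Left, the authors' mean named D3C (y axis) against the reads of diabetic ulcer 2 implied by its TPM (x axis); right, the authors' mean named D3M against a weighted sum of diabetic ulcer 1 and normal ulcer 1 and 2. All axes are logarithmic, grey points are all miRNAs above 0, and purple points are the 8 described here.

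miR-124-3p was discordant between the deposited files. In diabetic ulcer 2 its count was 0, whereas its deposited TPM was 0.402, which corresponds to 9 reads at the constant of 22.4 counts per TPM unit that held within 2% for 643 of 647 entries of that library. The authors' D3C mean for miR-124-3p was 8.38, which is 0.931 times 9 and not 0. The deposited TPM was 0 in diabetic ulcer 1, against 0.329 and 0.285 in normal ulcer 1 and 2. On the count scale both diabetic ulcers lay below both normal ulcers, and on the TPM scale diabetic ulcer 2 was the highest library. No fold change is given for that reason.

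Both arms of miR-338 were lower in both diabetic ulcers than in both normal ulcers on the TMM scale. miR-338-5p had 25.1 and 22.9 CPM in diabetic ulcer 1 and 2 (278 and 249 counts), against 29.6 and 46.4 CPM in normal ulcer 1 and 2 (352 and 389 counts). miR-338-3p had 13.6 and 11.4 CPM in diabetic ulcer, against 15.5 and 25.8 CPM in normal ulcer. For both arms the groups did not overlap, and normal ulcer 2 was the highest library. Means were 24.0 ± 1.60 CPM in diabetic ulcer and 38.0 ± 11.9 CPM in normal ulcer for miR-338-5p (SD, n = 2 each). For miR-338-3p they were 12.5 ± 1.60 CPM in diabetic ulcer and 20.7 ± 7.24 CPM in normal ulcer (SD, n = 2 each). Neither difference passed: the log2 difference was -0.66 ± 0.35 for miR-338-5p and -0.72 ± 0.39 for miR-338-3p (SE, edgeR, adjusted p = 0.999 for both). Without normal ulcer 2 these differences were -0.19 and -0.20. Of all 443 tested miRNAs, 53 (12%) had both diabetic ulcers below both normal ulcers and 40 (9.03%) had them above. Among the 7 tested here, 2 were of the first kind, the arms of 1 hairpin, and none of the second.

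The order of the groups depended on the scaling. As CPM of the listed counts, with no scaling factor, miR-338-5p stood at 29.9 and 23.1 in diabetic ulcer and 39.3 and 29.0 in normal ulcer, so that the groups overlapped. On deposited TPM they did not, at 13.2 and 11.1 in diabetic ulcer and 16.5 and 18.5 in normal ulcer. A ratio of counts within a library needs no scaling. miR-338-5p over miR-128-3p was 0.232 and 0.237 in diabetic ulcer, against 0.442 and 0.359 in normal ulcer. Over miR-9-5p it was 0.424 and 0.281 in diabetic ulcer and 0.375 and 0.450 in normal ulcer, so the groups overlapped against that miRNA. The muscle share given above was also highest in normal ulcer 2. With miR-1a-3p left out of the fit, the log2 differences were -0.59 for miR-338-5p and -0.65 for miR-338-3p. The part of muscle in these values was not tested beyond that.

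The arms of the Mir338 hairpin are shown in capitals, the 5p arm first, since both were counted and their proportion could be compared.
Mir338: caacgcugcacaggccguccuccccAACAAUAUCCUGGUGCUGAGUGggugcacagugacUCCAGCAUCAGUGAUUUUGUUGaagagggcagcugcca
The 5p arm made up 64.8% of both arms in diabetic ulcer 1 (95% Wilson interval 60.2 to 69.2) and 66.8% in diabetic ulcer 2 (61.8 to 71.3). It made up 65.5% in normal ulcer 1 (61.4 to 69.4) and 64.3% in normal ulcer 2 (60.4 to 68.0). The 5p arm was thus the more abundant in every library, and the shares differed by less than their counting error. Their difference, diabetic minus normal, was 0.856 percentage points (exact two-sided permutation p = 0.667, where 0.333 is the smallest this design allows).

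For miR-9 the 5p arm predominated. It made up 97.0% of both arms in diabetic ulcer 1 and in diabetic ulcer 2, against 98.4% in normal ulcer 1 and 97.1% in normal ulcer 2. The difference was -0.714 percentage points (exact two-sided permutation p = 0.333, the smallest possible), and the value of normal ulcer 1 rested on 15 reads of the 3p arm.

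**Figure D4:**
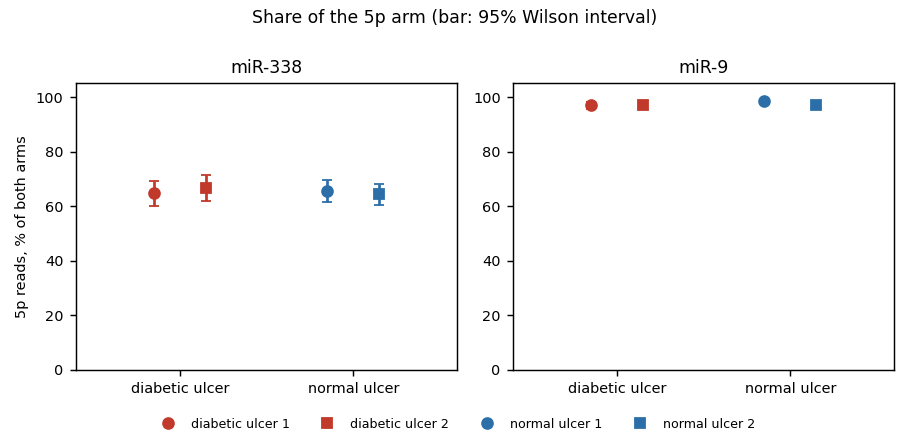
Share of 5p reads among the reads of both arms (y axis, percent from 0) for miR-338 and miR-9, with diabetic ulcer on the left and normal ulcer on the right; bars are 95% Wilson intervals, which cover counting error only. The miR-338 share lies between 64.3% and 66.8% in all 4 libraries, and the miR-9 share between 97.0% and 98.4%.

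On the TMM scale, the levels of miR-9 and miR-128 overlapped between the groups. miR-9-5p had 59.3 and 81.2 CPM in diabetic ulcer 1 and 2, against 78.8 and 103 CPM in normal ulcer 1 and 2. In each group library 2 was the higher, by 1.37-fold in diabetic ulcer and 1.31-fold in normal ulcer. Its log2 difference was -0.37 ± 0.30 (SE, edgeR, adjusted p = 0.999). miR-9-3p rested on 20 and 27 counts in diabetic ulcer and 15 and 26 in normal ulcer, with a log2 difference of 0.01 ± 0.55. miR-128-3p had 108 and 96.4 CPM in diabetic ulcer 1 and 2, against 66.9 and 129.3 CPM in normal ulcer 1 and 2. Both diabetic values lay between the normal ones, and the log2 difference was 0.06 ± 0.36 (SE, edgeR, adjusted p = 0.999). Other scales gave other orders. On deposited TPM miR-9-5p was lower in both diabetic ulcers, at 31.1 and 39.6, against 44.1 and 41.1 in normal ulcer. As CPM of the listed counts, miR-128-3p was higher in both diabetic ulcers, at 128.8 and 97.6, against 88.9 and 80.8 in normal ulcer. So was miR-9-3p, at 2.15 and 2.51 against 1.68 and 1.94. Fitted with library totals, 312 of all 443 tested miRNAs were higher and 131 lower in diabetic ulcer. The share of all miRNAs with groups that did not overlap was counted on the TMM scale only.

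**Figure D5:**
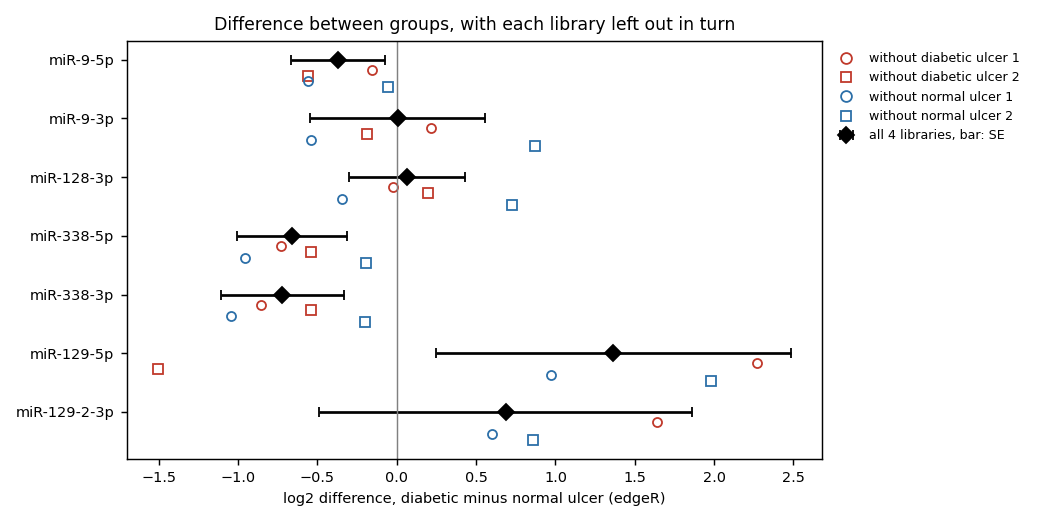
Log2 difference, diabetic minus normal ulcer (x axis), of the 7 tested miRNAs, with its SE from all 4 libraries (black) and the value with each library left out (open symbols). miR-338-5p and miR-338-3p stay below 0 in every case, and miR-129-5p turns to -1.50 without diabetic ulcer 2, where miR-129-2-3p did not pass the low-count filter and has no value.

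None of the other miRNAs of neurons and glia passed. Of a list of 38 such miRNAs, 22 were in the count table and 15 were tested, of which 8 were higher and 7 lower in diabetic ulcer and 0 passed edgeR's test in either direction. Their median log2 difference was 0.02, against -0.02 over all tested miRNAs. The split depended on the setting: 12 were higher and 3 lower with library totals, 11 and 5 when diabetic ulcer 1 was left out, 4 and 13 when diabetic ulcer 2 was, 5 and 11 when normal ulcer 1 was, and 13 and 4 when normal ulcer 2 was. Over all tested miRNAs, 312 were higher and 131 lower with library totals. Without diabetic ulcer 1 that split was 237 and 240, and without diabetic ulcer 2 it was 222 and 238. Leaving out normal ulcer 1 gave 254 and 210, and leaving out normal ulcer 2 gave 284 and 188. The most abundant of the list was miR-7b-5p, of a family found in sensory and endocrine neurons. miR-7b-5p had 1337 and 2276 CPM in diabetic ulcer 1 and 2 and 1442 and 1377 CPM in normal ulcer 1 and 2. Its relative miR-7a-5p had 286 and 393 CPM in diabetic ulcer, against 337 and 299 CPM in normal ulcer. miR-218-5p, which is abundant in motor neurons, had 790 and 499 CPM in diabetic ulcer and 812 and 493 CPM in normal ulcer. Here library 1 was the higher in both groups. miR-134-5p, which limits dendritic spine size in rat neurons, had 98.6 and 140.4 CPM in diabetic ulcer, against 104.2 and 128.5 CPM in normal ulcer. miR-138-5p, a miRNA of neurons and glia and the glial marker counted beside miR-338-3p, had 7.50 and 3.86 CPM in diabetic ulcer and 8.57 and 9.19 CPM in normal ulcer, a log2 difference of -0.64 that did not pass.

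Likeness of pattern was measured as the root mean square distance of log2 CPM, centred on each miRNA's mean over the 4 libraries, from 267 other entries with a mean of at least 10 CPM. The entries nearest to both arms of miR-338 were miR-382-5p, at 0.21 from miR-338-5p and 0.25 from miR-338-3p, and miR-30d-5p, at 0.24 and 0.29. miR-9-5p was nearest to miR-30a-5p (0.10) and miR-322-5p (0.11), and miR-128-3p to miR-1843a-3p (0.10) and miR-411-3p (0.17). This distance was not scaled to spread, so a miRNA with a wide gap between libraries can lie far from others for that reason alone. With the widest gap between diabetic libraries, miR-129-5p had no close neighbour: the nearest were miR-147-3p (0.63) and miR-203b-3p (0.64). The first of these is also among the entries whose count and TPM differed in diabetic ulcer 2, with 339 counts where its TPM corresponds to 187.5 reads.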

How the data were processed

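Per the labels' protocols, small RNA was isolated from skin with a mirVana kit and sequenced with Illumina chemistry. The build was GRCm38 (mm10), per the submitters' processing notes; which aligner, counter and miRNA release were used is not given in the sources used here. The authors deposited raw read counts per mature miRNA. The TPM values deposited by the authors follow the counts by a fixed factor in the libraries numbered 1 and 2, where 643 to 646 of 647 entries lay within 2% of it. In the columns numbered 3 that was so for 48 entries in diabetic ulcer and 421 in normal ulcer. The authors' table of fold changes (a ratio), log2 fold changes and p-values and q-values came, per the file headers, from an unpaired DESeq2 run; its base means and the miRNA lengths were read as other values.

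Counts of libraries 1 and 2 of each group were fitted with edgeR 4.0.16 (R 4.3.3; glmQLFit, glmQLFTest), filterByExpr at its defaults, group as the only term and TMM factors of 1.19 and 1.01 in diabetic ulcer 1 and 2 and 1.33 and 0.624 in normal ulcer 1 and 2. Calls needed an adjusted p under 0.05. The rule that takes the 8 miRNAs is a list of names and holds no measured value, but that list and the other lists were drawn up with earlier results of these data known. Named miRNAs were all 8 taken by name, the 2 nearest entries for each of at least 10 CPM, the 4 most abundant tested entries of the neural list and the most abundant entry of each marker list; further names were chosen after their values were seen. The marker lists stand as summed levels: 3 erythroid miRNAs, led by the entry of miR-486a-5p and miR-486b-5p, summed to 926 and 1044 CPM in diabetic ulcer and 592 and 1586 CPM in normal ulcer, and 5 mesenchymal ones, led by miR-143-3p, to 43549 and 50434 CPM in diabetic ulcer and 50656 and 42116 CPM in normal ulcer. The code was tested on simulated data. Alternatives were DESeq2 1.42.0, limma 3.58.1 on log2 TPM, other scalings and filters, all 6 columns, the replicate block and leaving out each library. Coordinates are on GRCm38 and count from 1, with overlapping genes from GENCODE. All per-sample columns were mapped.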

Additional observations from a re-analysis of the deposited data

Results flagged for a closer look

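miR-124-3p in diabetic ulcer 2 carried a deposited TPM of 0.402 in the comparison table although the count table, on which the tests were run, lists 0 for it. The TPM lay above that of both normal ulcers, at 0.329 and 0.285. Of 647 entries with both a count and a TPM, 4 had values that did not correspond in diabetic ulcer 2, and miR-124-3p alone of these had a count of 0. For miR-122-5p the TPM implied more reads than counted (200.9 against 31). It implied fewer for miR-147-3p (187.5 against 339) and for an entry shared by miR-669a-3p and miR-669o-3p (11 against 89).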

How the results depend on the processing

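The count of miRNAs called was 0 with all 4 libraries, 1 with library totals (miR-499-5p, a muscle miRNA, chosen after its values were seen) and 0 under the other settings that kept all 4 libraries; it ranged from 0 to 6 when 1 library was left out, with 6 without normal ulcer 1. Library totals moved the median log2 difference of all tested miRNAs to 0.17, and put 312 higher and 131 lower, against 211 and 232 with TMM. Among the members, miR-9-5p, miR-338-5p and miR-338-3p kept a negative sign under all 15 alternatives, from -0.56 to -0.06, from -0.96 to -0.19 and from -1.05 to -0.20, with a smallest adjusted p of 0.353 for the arms of miR-338 over all 6 columns. Sign changes came when 1 library was left out, with ranges of -0.54 to 0.87 for miR-9-3p, -0.34 to 0.72 for miR-128-3p and -1.50 to 2.27 for miR-129-5p; miR-129-2-3p took -0.12 on deposited TPM with a pseudocount of 0.1. The cause was not tested. Taking the TPM-implied counts of the 4 discordant entries, a setting chosen after seeing the data, also called 0. No neural list member was called under any setting. With 1 library left out, the lone sample of a group is assumed to vary like the other group's. With the replicate block 0 miRNAs were called, with 20 at an unadjusted p under 0.05, and miR-129-5p had 0.54; the replicate numbers are not known to pair samples, and deviations of libraries numbered 1 correlated at 0.44 between the groups over 443 miRNAs. miR-124-3p, miR-129-2-3p and miR-9-3p rest on under 30 counts per library, so only large differences were detectable.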

Other observations

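Antisense partners of the other hairpins were also counted. miR-9b-3p, whose sequence is the reverse complement of 21 bases of miR-9-5p at each of its 3 places, had 6 and 14 counts in diabetic ulcer 1 and 2 and 8 and 11 counts in normal ulcer 1 and 2. miR-3065-3p, which shares a run of 19 bases with the reverse complement of miR-338-5p, had 6 and 5 counts in diabetic ulcer and 7 and 5 in normal ulcer. miR-128-3p was the only one of the 7 with a sequence above whose seed was shared by another entry, miR-6539, which had 24 and 37 counts in diabetic ulcer and 24 and 15 in normal ulcer (log2 difference 0.54, adjusted p = 0.999 with edgeR).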
